A study of Homo sapiens with 2 samples.

Results

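Of the 17396 peaks called for the histone demethylase UTX in Jurkat cells, 23 lay at 6 genes known for their part in the survival and division of cells, as did 7 of the 2678 peaks listed for the transcription factor TAL1. These genes were BCL2, MCL1, BCL2L1 and BCL2L11 of the BCL2 family and the D cyclins CCND2 and CCND3. A peak counted as a member where it reached by 1 base or more into a fixed hg19 window around 1 of the genes, and neither peak width nor overlap entered this rule. The windows were chr18:60770000-61010000 for BCL2, chr1:150530000-150570000 for MCL1, chr20:30230000-30330000 for BCL2L1, chr2:111850000-111950000 for BCL2L11, chr12:4350000-4440000 for CCND2 and chr6:41880000-42040000 for CCND3, 730 kb in all. Jurkat is an established human line of T cell acute lymphoblastic leukaemia (T-ALL), and the cells were grown without treatment. The series held 1 chromatin immunoprecipitation (ChIP) library made with a mixture of antibodies against UTX, one of them home-made, and 1 mock library made with an isotype IgG. The TAL1 sites came from an earlier study, and the sources used here do not name the cells they were mapped in. The mock library was not analysed here. The lists gave positions only, so the read depth behind each peak is unknown, width was the only measure of a peak's size, and the identity of the cells could not be checked against markers. With 1 library or list per protein there was no replicate, and no difference below carries a test.

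The BCL2 family decides whether the outer membrane of the mitochondria stays intact. BCL2, MCL1 and BCL-XL, the long product of BCL2L1, hold the pore-forming proteins BAX and BAK in check, and BIM, the product of BCL2L11, is a BH3-only protein that binds these guardians and promotes death. The D cyclins pair with the kinases CDK4 and CDK6, and the pairs phosphorylate the retinoblastoma protein, which releases E2F factors and lets a cell leave the first gap phase. Cyclin D3 is needed for the expansion of immature thymocytes in the mouse. UTX, also named KDM6A, is an enzyme that takes methyl groups off lysine 27 of histone H3, a mark of silenced genes. The factor TAL1 binds E-box letters together with a partner E protein, often beside GATA and RUNX factors, and is active out of place in a subset of T-ALL.

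RefSeq promoter sequences, which run from 250 bases before to 50 bases after a gene's start, were matched for 4 of the 6 genes (BCL2, BCL2L1, BCL2L11 and CCND3), with 7 starts in all. They are shown for 1 start of each gene whose window held TAL1 peaks, because these starts carry letters that TAL1 or its partner factors are known to bind. Each is written 5′ to 3′ on the gene's strand, and capitals mark an E-box (CANNTG), GATA or the RUNX letters (TGTGGT, or ACCACA on the other strand). The sequences follow GRCh38.p14 and the peaks hg19, so whether a peak covers these bases was not determined.
BCL2 (GRCh38.p14 chr18:63319720-63320019, minus strand): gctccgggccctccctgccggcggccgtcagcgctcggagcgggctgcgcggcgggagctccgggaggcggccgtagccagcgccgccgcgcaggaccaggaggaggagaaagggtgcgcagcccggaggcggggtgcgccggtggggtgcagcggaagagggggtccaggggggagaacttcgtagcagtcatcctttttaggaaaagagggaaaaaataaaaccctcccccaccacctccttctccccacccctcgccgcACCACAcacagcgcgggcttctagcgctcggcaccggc
BCL2L1 (GRCh38.p14 chr20:31723914-31724213, minus strand): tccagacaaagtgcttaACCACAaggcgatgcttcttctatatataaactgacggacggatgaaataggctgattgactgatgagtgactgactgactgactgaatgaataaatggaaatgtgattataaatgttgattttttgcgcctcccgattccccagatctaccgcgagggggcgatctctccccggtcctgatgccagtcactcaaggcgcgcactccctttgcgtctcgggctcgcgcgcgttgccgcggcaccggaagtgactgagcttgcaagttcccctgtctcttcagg
CCND3 (GRCh38.p14 chr6:42048639-42048938, minus strand): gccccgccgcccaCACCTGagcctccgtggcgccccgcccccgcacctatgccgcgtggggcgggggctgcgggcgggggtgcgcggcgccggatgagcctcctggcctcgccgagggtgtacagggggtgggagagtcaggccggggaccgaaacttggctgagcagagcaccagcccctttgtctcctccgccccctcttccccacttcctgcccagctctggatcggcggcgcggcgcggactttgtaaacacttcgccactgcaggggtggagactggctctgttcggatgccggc
The CCND3 start held the E-box CACCTG, and the BCL2 and BCL2L1 starts each held 1 match to the RUNX letters. None of the other starts, those of BCL2L1 and CCND3 included, held a marked match. The starts shown were thus picked by their matches, and no link to the TAL1 peaks is drawn from them. On both strands, 1 of the 7 starts held any E-box, against 68.7% of all 35116 RefSeq promoters. None of the 7 held CAGCTG (17.9% of all promoters), CAGATG (14.7%) or GATA (49.7%), 2 held TGTGGT (13.1%), and 6 held the ETS letters GGAA (95.5%). CAGCTG and CAGATG are themselves forms of CANNTG. The 7 starts were rich in G and C, with a median of 70.7% (52.0% to 74.7%) against 58.7% over all promoters. These matches describe letters only.

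UTX peaks were found in all 6 windows, and TAL1 peaks in 3 of them. The CCND3 window held 12 UTX and 3 TAL1 peaks and the BCL2L1 window 5 and 3, so that these 2 loci carried 17 of the 23 UTX peaks and 6 of the 7 TAL1 peaks. BCL2 had 1 UTX peak and 1 TAL1 peak. MCL1 and CCND2 each had 2 UTX peaks, BCL2L11 had 1, and none of these 3 windows had a TAL1 peak. By role, the 3 genes for survival proteins had 8 UTX and 4 TAL1 peaks, the gene of the death-promoting BIM had 1 and 0, and the D cyclins had 14 and 3. The windows behind these counts add up to 380, 100 and 250 kb, and 12 of the 14 D cyclin peaks of UTX were at CCND3. With windows of unlike length, 1 death-promoting gene and no replicate, the counts by role cannot decide whether survival and death genes differ.

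**Figure D1:**
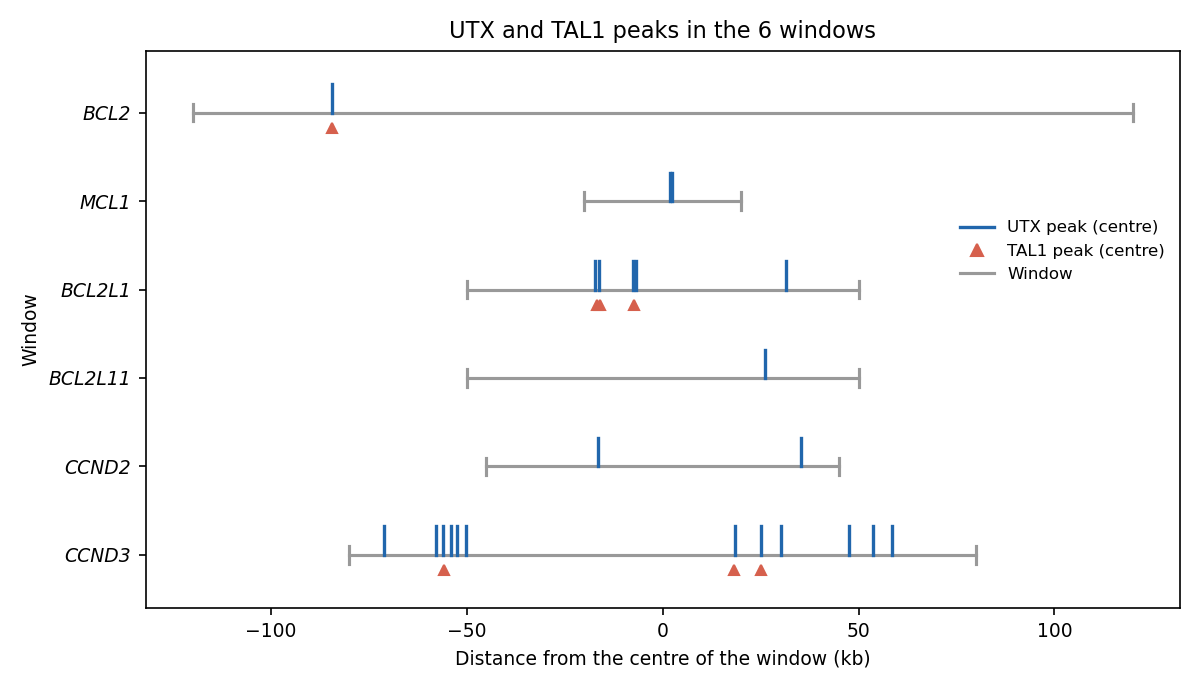
Positions of the UTX peaks (blue bars, drawn at peak centres) and TAL1 peaks (red triangles) in the 6 windows, in kb from the centre of each window. CCND3, with 12 UTX and 3 TAL1 peaks, and BCL2L1, with 5 and 3, stand apart from BCL2, where 1 UTX and 1 TAL1 peak share a position in a window of 240 kb.

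The windows differ in length, and their counts were therefore also set per 100 kb. The 6 windows together held 3.15 UTX and 0.959 TAL1 peaks per 100 kb, against 0.588 and 0.0905 in the whole lists over the stretch from the first to the last peak of each chromosome. Without CCND3 the other windows held 11 UTX and 4 TAL1 peaks, or 1.93 and 0.702 per 100 kb. UTX density was highest at CCND3 (7.5 per 100 kb), followed by MCL1 and BCL2L1 (5.0 each), CCND2 (2.22), BCL2L11 (1.00) and BCL2 (0.417). BCL2 alone lay under the density of the whole list, which depends on where its window ends. Extended by 50 kb on either side, it held 4 UTX peaks, or 1.18 per 100 kb, above the whole list. For TAL1 the order was BCL2L1 (3.0), CCND3 (1.87) and BCL2 (0.417), ahead of the windows with none. The short MCL1 window reached its density with 2 peaks, so that its place in the order rests on a count that a single peak would change greatly. Windows drawn around genes were set against a genome that includes long stretches without genes and gaps in the assembly, and the part of either in these differences was not tested.

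**Figure D2:**
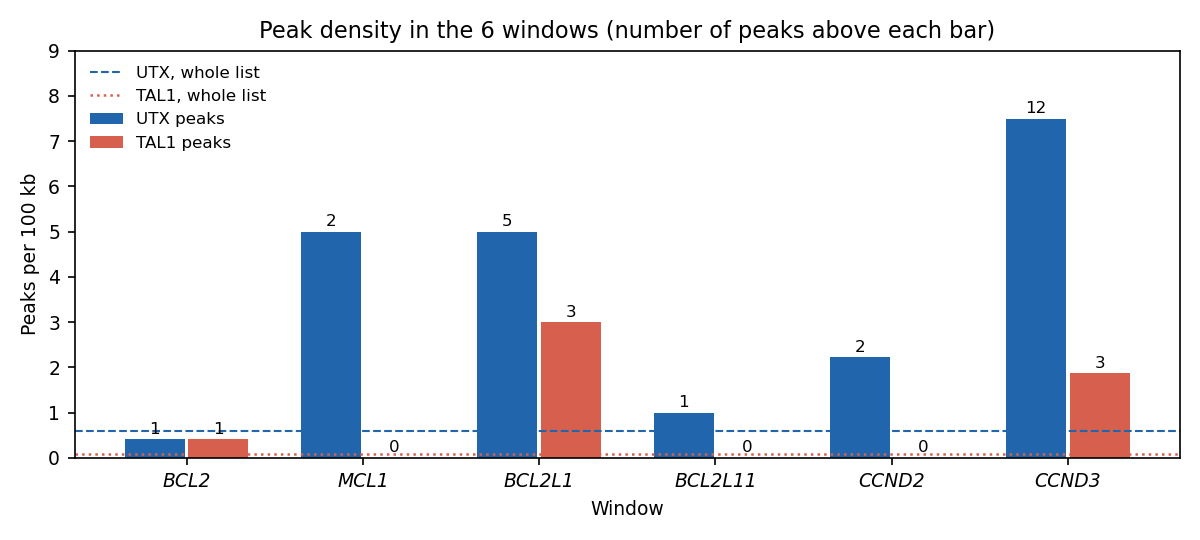
UTX (blue) and TAL1 (red) peaks per 100 kb in each window, with the number of peaks above each bar and the density of the whole lists as broken lines (UTX 0.588, TAL1 0.0905). BCL2 is the one window under the UTX line (above it, at 1.18, when extended by 50 kb on either side), while MCL1, BCL2L11 and CCND2 have no TAL1 bar.

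A second background was the genome cut into adjoining tiles of each window's own length. Of 18487 tiles of 160 kb, 32 (0.173%) held 12 or more UTX peaks, as the CCND3 window did, and 108 (0.584%) held 3 or more TAL1 peaks. At least 5 UTX peaks, the count at BCL2L1, were found in 540 of 29585 tiles of 100 kb (1.83%), and at least 3 TAL1 peaks in 83 of them (0.281%). Few tiles thus reached the counts of these 2 windows, but the fullest tiles held far more. They held up to 38 UTX and 19 TAL1 peaks at 160 kb, and up to 26 and 10 at 100 kb. The windows were chosen with earlier results of these data known. A fixed grid of tiles can also split a group of peaks that a window frames, so these shares are descriptions only. For MCL1, 4.85% of tiles of 40 kb held 2 or more UTX peaks, and for CCND2, 12.5% of tiles of 90 kb did. BCL2L11 and BCL2, with 1 UTX peak each, were matched or passed by 30.4% and 48.7% of tiles, and the 1 TAL1 peak of BCL2 by 15.9%. A lack of TAL1 was common among tiles like the 3 windows without it. Among tiles with at least as many UTX peaks, 70.1% held no TAL1 peak at the length of MCL1, 77.4% at that of BCL2L11 and 67.0% at that of CCND2. When the tiles without any UTX peak were left out, a setting chosen after the values were known, the share was 0.431% for CCND3, 6.01% for BCL2L1, 30.1% for MCL1 and 44.1% for CCND2, and it is 100% by construction for the windows with 1 UTX peak.

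All 7 TAL1 peaks of the windows lay in a UTX peak, where at least 1 shared base was required (95% exact Clopper-Pearson interval for the share 59.0 to 100%). In the whole list 80.8% of TAL1 peaks did, and outside the windows 2156 of 2671 (80.7%, interval 79.2 to 82.2%). The share of the whole list lies inside the interval of the windows, which is wide with 7 peaks and decides nothing about a difference. From the other side, 6 of the 23 UTX peaks held TAL1 (26.1%, interval 10.2 to 48.4%), against 12.1% of the whole UTX list and 2094 of 17373 outside the windows (12.1%, interval 11.6 to 12.5%). The value outside lies inside the interval of the windows here as well. Without CCND3, 3 of 11 UTX peaks held TAL1 (27.3%). The intervals cover the counting of peaks only. They treat peaks of 1 locus as independent, though these share their surroundings, and they are no test of a difference. Several UTX peaks without TAL1 stood close to a site that had it. Of the 23 UTX peaks, 13 overlapped a TAL1 peak or lay within 10 kb of one (56.5%; 19.3% of the whole list), namely 8 of 12 at CCND3, 4 of 5 at BCL2L1 and the peak at BCL2. For the 17 UTX peaks without TAL1 the median distance to TAL1 was 22.0 kb, and for those outside the windows 218 kb. This order rests on CCND3, without which the median of the remaining 8 peaks was 273 kb.

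The UTX peaks of the windows included wide ones. Their widths ran from 134 to 1055 bases with a median of 388, against a median of 320 outside the windows. Without CCND3 the median of the other 11 peaks was 279 bases, below that of the peaks outside. The upper quartile of the whole list was 457 bases, which 10 of the 23 exceeded (43.5%, interval 23.2 to 65.5%), where 24.9% of the whole list did, a share inside that interval. These 10 were 6 peaks at CCND3, 3 at BCL2L1 and 1 at MCL1, and without CCND3 they were 4 of 11. One peak, at BCL2L1, was wider than 1 kb (4.35%, interval 0.110 to 21.9%), as were 2.15% of the whole list. The TAL1 peaks were on the wide side in their own list too. Their widths were 144 bases at BCL2, 195, 220 and 198 bases at BCL2L1, and 259, 386 and 237 bases at CCND3, and 6 of the 7 exceeded the upper quartile of 188 bases (85.7%, interval 42.1 to 99.6%; 25% of the whole list). All 6 were at BCL2L1 or CCND3, and those of 195 and 198 bases were little above the cut. The intervals of these shares treat peaks of the same window as independent and are no test of a difference. The median width of the 7 TAL1 peaks was 220 bases, against 147 outside the windows. In the windows, the median width was 715 bases for UTX peaks with TAL1 (279 to 1055) and 343 bases for those without it (134 to 763). The 2 ranges overlap, and 10 of the 17 peaks without TAL1 were wider than the narrowest peak with it. In the whole UTX list the medians were 405 bases with TAL1 and 310 without. Width depends on the depth and the threshold of the calls, and the sources used here give neither.

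**Figure D3:**
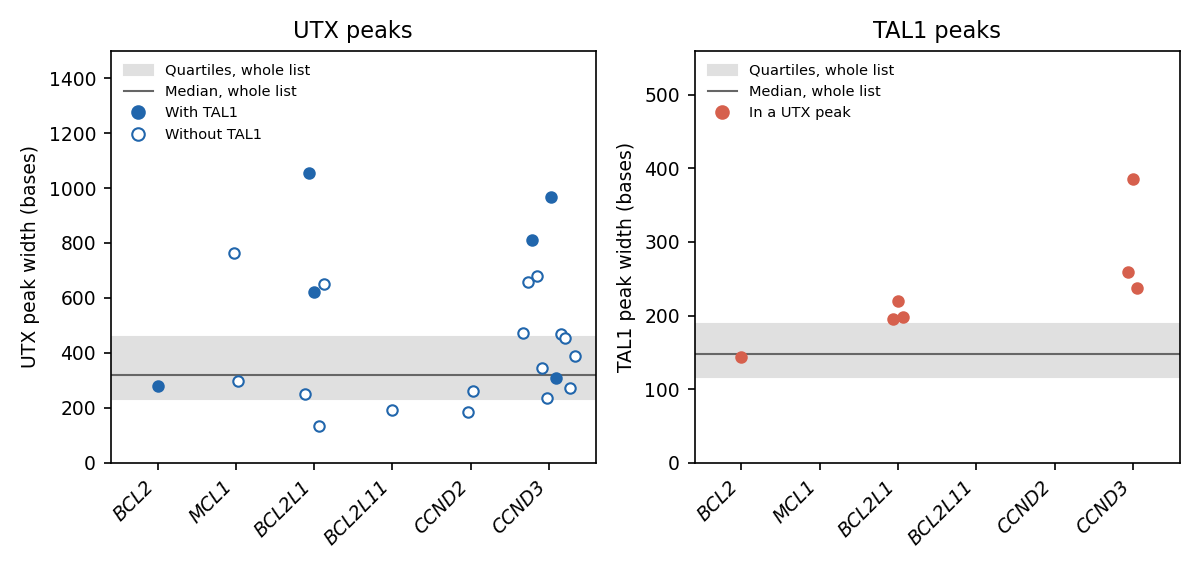
Width in bases of each UTX peak (left; filled circles hold a TAL1 peak, open circles do not) and each TAL1 peak (right) by window, with the quartiles (grey band) and median (line) of the whole list. Of the TAL1 peaks, the one at BCL2 lies inside the band (144 bases) and the other 6 above it.

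At BCL2, which encodes the founding survival protein of the family, the one UTX peak, chr18:60805429-60805707, was 279 bases wide, and 39.0% of the UTX list was narrower. The TAL1 peak chr18:60805490-60805633, 144 bases wide, lay inside it, with the 2 centres 6.5 bases apart, and took up 51.6% of its width. In the GRCh38.p14 table the gene is on the minus strand, so its start lies towards the high coordinates. The shared site was 35.4 kb from the low end of the window, and the remaining 204 kb up to the high end had no UTX peak. The next UTX peaks on that low side lay just past the edge. One of 1339 bases, chr18:60766451-60767789, ended 2.21 kb outside the window and held no TAL1 peak, and the one of 984 bases at chr18:60765321-60766304 held a TAL1 peak of 177 bases. Both were wider than the peak inside. Across all windows, a further 10 UTX peaks and 1 TAL1 peak lay within 50 kb of an edge, 6 of these UTX peaks at the low end of BCL2L1.

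At MCL1, whose short-lived product is a survival protein of lymphocytes, the 2 UTX peaks lay side by side near the middle of the window. The wider, chr1:150551428-150552190, measured 763 bases, and 94.5% of the UTX list was narrower. The other, chr1:150552276-150552573, measured 298 bases and began after a gap of 0.085 kb. Together they spanned 1.15 kb, of which 92.6% was called. The nearest TAL1 peak, chr1:151265338-151265464, lay 713 kb away from both. Of all UTX peaks without TAL1, 20.8% were at least as far from TAL1, so this distance is not rare in the list.

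BCL2L1, the gene of BCL-XL, had its TAL1 peaks within a stretch of 10.6 kb that held 4 of its 5 UTX peaks. The widest UTX peak of all 6 windows was there, chr20:30263159-30264213, with 1055 bases, 317th by width in the whole list. It held 2 TAL1 peaks, chr20:30263183-30263377 of 195 bases and chr20:30263754-30263973 of 220 bases, which were 376 bases apart. A UTX peak with 2 or more TAL1 peaks occurred 58 times in the whole list (0.333% of UTX peaks). The first of the 2 TAL1 peaks began 24 bases from the low edge of the UTX peak, 406 bases from centre to centre, and the second lay 178 bases to the other side of the UTX centre. The third TAL1 peak, chr20:30272569-30272766 of 198 bases, lay in the UTX peak chr20:30272207-30272827 of 621 bases, 150.5 bases from its centre. The other 2 UTX peaks of the stretch were narrow, 251 bases at chr20:30262704-30262954 and 134 bases at chr20:30273189-30273322, and each stood close to a wide neighbour, 0.204 and 0.361 kb away. The fifth UTX peak, chr20:30311150-30311799 of 650 bases, lay 37.8 kb further towards the high coordinates, the side of the gene's start on the minus strand. It held no TAL1 peak, and the nearest was 38.4 kb away.

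BCL2L11, the gene of the death-promoting protein BIM, had 1 narrow UTX peak, chr2:111926130-111926320, of 191 bases. Of the UTX list, 12.5% was narrower. The next UTX peak was 169 kb away, farther than for any other of the 23, and the next TAL1 peak 239 kb. The gene is on the plus strand, and the 76.1 kb of the window below the peak held no UTX peak.

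CCND2, one of the D cyclins, had 2 narrow UTX peaks that lay 51.6 kb apart. They measured 184 bases at chr12:4378507-4378690 and 261 bases at chr12:4430293-4430553, and 10.4% of the UTX list was narrower than the first. The nearest TAL1 peak was 307 kb from the first and 358 kb from the second. Every UTX peak of the BCL2L11 and CCND2 windows was thus narrower than the median of the list, 320 bases.

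CCND3, the other D cyclin, had the densest set. Its 12 UTX peaks covered 3.78% of the window, against 0.229% of the whole span by the whole list, and fell into 2 parts with an empty stretch of 68.0 kb between them, chr6:41909826-41977852. Below that stretch, chr6:41888630-41889101 (472 bases) stood alone, and 5 peaks lay within 8.09 kb, chr6:41901736-41909825. Groups of 5 or more UTX peaks no more than 10 kb apart took up 4.94% of the UTX list. In this group the TAL1 peak chr6:41903980-41904238 of 259 bases lay in the UTX peak chr6:41903498-41904306 of 809 bases, 207 bases from its centre. Its neighbours chr6:41901736-41902393 of 658 bases and chr6:41905715-41906392 of 678 bases had none, nor did the last 2 of the group, which measured 343 and 237 bases.

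Above the empty stretch lay 6 UTX peaks, in 2 groups of 3. The first, chr6:41977853-41978819, was the second widest of all 23, with 967 bases. The TAL1 peak in it, chr6:41978120-41978505, measured 386 bases, which ranked 30th of the 2678 TAL1 peaks by width, and the 2 centres were 23.5 bases apart. The next UTX peak, chr6:41984901-41985208 of 308 bases, held the TAL1 peak chr6:41984948-41985184 of 237 bases, which took up 76.9% of it, the highest share among the 7. These 2 TAL1 peaks were 6.44 kb apart. The UTX peak chr6:41990006-41990472 of 467 bases, 4.82 kb from TAL1, closed the group without a TAL1 peak. The last 3 UTX peaks, between chr6:42007209 and chr6:42018638, measured 454, 272 and 388 bases and lay 22.0 to 33.1 kb from the nearest TAL1 peak. CCND3 is on the minus strand with 3 RefSeq starts, and BYSL and TAF8 are its nearest protein-coding neighbours in the RefSeq order, so a peak in this window is not thereby assigned to CCND3.

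Each of the 7 TAL1 peaks lay entirely inside its UTX peak, as did 90.2% of the TAL1 peaks that overlapped UTX in the whole list. The distance between the 2 centres varied. The centres were 6.5, 11.5 and 23.5 bases apart at BCL2 and at 2 CCND3 sites, and 150.5 to 406 bases apart at the 3 BCL2L1 sites and the remaining CCND3 site. The median of the 7 was 150.5 bases, and that of the 2163 shared TAL1 peaks of the whole list was 44.5 bases. The 4 TAL1 peaks with the larger distances were in UTX peaks of 621 to 1055 bases, and the distance of 23.5 bases was in one of 967 bases. The part of UTX width in these distances was not tested. Files without summits do not show where in a UTX peak the signal was highest.

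**Figure D4:**
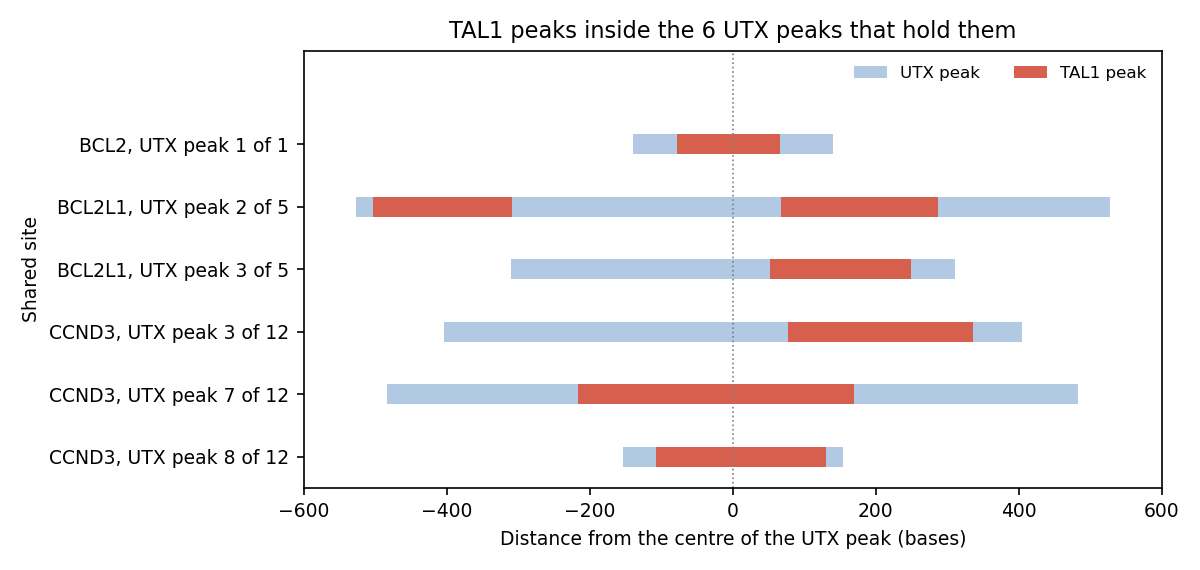
The 6 UTX peaks that hold TAL1 (light blue), aligned at their centres, with the TAL1 peaks inside them (red), in bases from the UTX centre. The TAL1 peaks of BCL2 and of CCND3 peaks 7 and 8 lie across the centre, and each of those at BCL2L1 and at CCND3 peak 3 lies off it. The TAL1 peaks that share the widest BCL2L1 peak lie on opposite sides of its centre.

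Most of the 23 UTX peaks had another UTX peak close by. The nearest one was a median of 4.52 kb away, against 16.6 kb outside the windows. Without CCND3 the median of the other 11 was 0.361 kb, with 5 of them over 30 kb from the next. In all windows, 17 of the 23 had one within 10 kb (40.9% of the whole list). Most of these were at CCND3, where only chr6:41888630-41889101 had none so close. The rest were the MCL1 pair and the BCL2L1 peaks other than chr20:30311150-30311799, and BCL2, BCL2L11 and CCND2 added none. When peaks up to 10 kb apart were joined, the 6 windows held 11 groups. They were 4 at CCND3, 2 each at BCL2L1 and CCND2, and 1 in each of the other windows. The closest neighbours were the 2 peaks of MCL1 and the narrow and wide pairs of BCL2L1.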

How the data were processed

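UTX was located by ChIP-seq in 1 library of Jurkat cells, beside 1 mock library with IgG that was not analysed here. The tools were BWA 0.6.2, SAMtools 0.1.18 and MACS2 2.0.10 on hg19, per the submitters' processing notes. Neither the settings and threshold nor whether the mock served as control is given in the sources used here, nor is the caller of the TAL1 list, which per the series' design text rests on data of an earlier study. Both deposited files hold 3 columns (chromosome, start counted from 0, end) without any score, p-value or count of reads, and depth is therefore unknown. The TAL1 list is taken as hg19 because 2163 of its 2678 peaks overlap UTX peaks. Positions are printed counted from 1.

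Peaks with at least 1 base in a window were counted, and an overlap of 1 base was called shared, checked with bedtools 2.31.1. The other tools were matplotlib 3.10.9, scipy 1.17.1 and numpy 2.4.6 under Python 3.11.15. Distances are bases between peak edges unless centres are named. Tiles were laid from the first peak of either list on each chromosome. Intervals, where printed beside a share, are 95% exact binomial ones, and the other shares carry none. The counting was tested on simulated lists. The windows, genes and motifs were chosen with earlier results of these data known. By rule the text names all 6 genes, every TAL1 peak with its UTX peak, the widest UTX peak of each window and those over the upper quartile of width. Other peaks, past the edges and in the groups of CCND3 and BCL2L1, were named after their values were seen. Counts over other genes of these pathways could not be run without an annotation of hg19.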

Additional observations from a re-analysis of the deposited data

How the results depend on the processing

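Of 64 values computed under other settings, 48 stayed within 1.5 times the reported value, be it a count, a tile share, a median or a density. This tally does not measure robustness, because some of the values could not move. Leaving out MCL1, BCL2L11 or CCND2, which had no TAL1 peak, keeps the counts of TAL1 and of shared peaks by construction. When the UTX list was cut to its wider 50%, by construction a list of fewer peaks, 13 UTX peaks of 23 were in the windows. Leaving out CCND3 left 11 UTX and 4 TAL1 peaks, 4 TAL1 peaks in UTX and 3 UTX peaks with TAL1. Without CCND3, settings chosen after the data were seen, the median UTX width was 279 bases and the median distance to TAL1 273 kb, which turned both orders against the peaks outside the windows. Leaving out BCL2L1 left 4 TAL1 peaks, 4 of them in UTX. Under overlap of at least 50% of the shorter peak, centres within 500 bases or gaps of up to 1 kb, the TAL1 peaks counted as shared were 7 each time. With every peak set to 200 bases they were 5. Windows extended by 50 kb held 33 UTX and 8 TAL1 peaks. Among tiles with at least 1 UTX peak, a setting chosen after the data were seen, the share with at least as many UTX peaks was 100% for BCL2, 30.1% for MCL1, 6.01% for BCL2L1, 100% for BCL2L11, 44.1% for CCND2 and 0.431% for CCND3, by construction above the share of all tiles. Groups joined across 5 and 20 kb numbered 14 and 9, against 11 across 10 kb. No paired analysis was possible because each list comes without replicates. Unknown depth limits what counts as a peak, and a window without TAL1 peaks is not shown to lack TAL1.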
